A study of Mus musculus with 24 samples.

Results

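The stefin A genes are a family of small cystatin genes that lie side by side on mouse chromosome 16. They were described here in bone marrow cells together with Cstb, which encodes stefin B, the other member of the type 1 cystatins. The 8 genes, Stfa1, Stfa2, Stfa3, Stfa2l1, BC100530, BC117090, Gm5483 and Cstb, were found by their Ensembl identifiers among the 54752 genes of the table. They were selected on their higher TPM after spaceflight, which several of them showed, so their flight values are a description. Numbers of them past a threshold in flight support nothing, and the share of all genes is given with them where it is known. A gene was tested where any of its libraries exceeded 1 TPM, which left 12373 genes, 7 of the 8 among them. BC117090 did not pass this filter.

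RNA was measured in 24 male mice of the C57BL/6 strain, 6 in each of 4 groups, with 1 library per mouse. FL-WT and FL-KO mice, wild-type and Nrf2-KO, spent 31 days in space, and marrow was taken from them 2 days after their return. GC-WT and GC-KO mice were the ground controls of the same genotypes. The 4 comparisons are named the WT flight effect (FL-WT vs. GC-WT), the KO flight effect (FL-KO vs. GC-KO), the ground genotype effect (GC-KO vs. GC-WT) and the flight genotype effect (FL-KO vs. FL-WT). The flight mice were 8 weeks old at transport to the launch site, and the RNA of all groups came from cryopreserved, unsorted marrow cells. The study's methods name a site on the West Coast of the United States for the blood counts of flight mice and one in Japan for the ground mice, so flight and the site of handling cannot be told apart. The Nrf2-KO mice lacked Nrf2 in every cell, and bulk RNA cannot tell fewer cells of a type from less RNA per cell.

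Stefins are cytosolic inhibitors of papain-like cysteine proteases, above all the lysosomal cathepsins. A stefin binds tightly and reversibly in the active site cleft of its target and is thought to protect the cytosol from protease that leaks out of lysosomes or granules. Stefin A genes have multiplied in the mouse, where several copies are expressed in neutrophils and their precursors, whereas the single Cstb gene is expressed in most tissues.

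The 7 stefin A genes spanned 298.6 kb of GRCm38, at chr16:36156811-36455392. Stfa2l1, Gm5483 and Stfa1 were annotated on the forward strand, and BC117090, BC100530, Stfa2 and Stfa3 on the reverse strand. Cstb was on chromosome 10 (chr10:78425669-78427622). All 8 were protein-coding, and the 6 tested stefin A transcripts were 412 to 619 nt long. The coding sequences of the 7 stefin A genes were 79.7% to 97.9% identical in pairs, and those of Cstb and a stefin A gene 61.5% to 67.0%. The closest pairs were Stfa1 and BC100530 (97.9%), BC100530 and BC117090 (97.2%) and Stfa2 and Stfa2l1 (96.4%). Stfa1 and BC100530 shared a run of 128 nt without a mismatch, so the authors' estimation could divide reads between such copies, and single values within these pairs are uncertain. Cstb shared at most 11 nt in a row with any stefin A gene.

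The start regions of 6 of the 8 genes were found in RefSeq (GRCm38.p6), and they are shown because the family resembles itself there as well. In the 250 bases before the start, pairs of stefin A genes were 68.4% to 90.8% identical. All 6 windows held the same 13-base run, in capitals below, which occurred in 0.0274% of 32851 such windows of all genes (9 windows, these 6 included). The letters AGATAA, which match the motif of GATA factors, are also in capitals. The 110 bases before the start are given for the 3 genes whose start was the same in RefSeq and GENCODE, and 30 bases around the shared run for the others, 5′ to 3′ on the strand of the gene.
Stfa3 (chr16:36455393-36455502, reverse strand): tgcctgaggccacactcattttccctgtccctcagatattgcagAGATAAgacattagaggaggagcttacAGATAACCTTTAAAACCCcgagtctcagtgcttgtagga
Stfa2l1 (chr16:36156701-36156810, forward strand): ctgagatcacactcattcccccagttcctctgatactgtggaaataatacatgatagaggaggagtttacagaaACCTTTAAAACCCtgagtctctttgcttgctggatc
Gm5483 (chr16:36184102-36184211, forward strand): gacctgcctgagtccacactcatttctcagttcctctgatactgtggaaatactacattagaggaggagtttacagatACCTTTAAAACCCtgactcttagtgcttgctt
Stfa1 (chr16:36277107-36277136, forward strand): tttcggatACCTTTAAAACCCtgagtctca
Stfa2 (chr16:36408374-36408403, reverse strand): ttacagaaACCTTTAAAACCCtgagtctct
BC100530 (chr16:36367561-36367590, reverse strand): ttacagatACCTTTAAAACCCcgagtctca

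The shared run began between 36 and 12 bases before the RefSeq start. On both strands of the windows, which reach from 250 bases before to 50 bases after the start, AGATAA was found in Stfa1, Stfa3 and BC100530, 3 of 6, against 11.2% of all windows. The letters GAGGAA, the core of a PU.1-type motif, were found in 6 of 6 against 28.3%. TTNNGNAA, a C/EBP-type motif, was found in 5 of 6 against 40.7%. The letters TGACNNNGC, the core of the antioxidant response element that Nrf2 binds, were in 0 of 6 windows against 12.4% of all, and TATAAA was in 0 of 6 against 13.6%. These matches describe letters in a window and not bound sites.

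Nfe2l2, the gene of Nrf2, was at 2.22 to 7.18 TPM in Nrf2-KO and at 11.4 to 27.3 TPM in WT mice, without overlap. The most abundant small RNAs, which are Rmrp, Rpph1, Rn7sk and the pair Rn7s1 and Rn7s2 (5 in all), took 35.4% to 59.6% of TPM. Their mean share was 48.8% ± 7.18 (SD) in GC-WT and 48.0% ± 7.27 in FL-WT mice. In GC-KO mice it was 44.7% ± 4.68 and in FL-KO mice 51.2% ± 4.46. The mean share was thus higher in flight in Nrf2-KO mice only, and this difference was not tested. No read counts were used here, so the depth is unknown. The median gene was lower in the first-named group of each of the 4 comparisons, by 0.24 on the log2 scale in the WT flight effect, 0.29 in the KO flight effect, 0.22 in the ground genotype effect and 0.25 in the flight genotype effect, and median-of-ratios scaling brought it to between 0.00 and 0.03. The split of calls over all genes moved with it, from 8 higher and 116 lower to 22 and 15 in the WT flight effect, from 0 and 264 to 8 and 22 in the KO flight effect, from 16 and 376 to 31 and 70 in the ground genotype effect, and from 12 and 1034 to 26 and 428 in the flight genotype effect, which stayed mostly lower.

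Gm5483 and Stfa2l1 were the abundant stefin A genes of the marrow. Because TPM is scaled by transcript length, levels can be compared between genes. Over all 24 mice, the mean level was 86.8 TPM for Gm5483 and 71.3 TPM for Stfa2l1, followed by Stfa1 at 11 TPM, BC100530 at 6.61 TPM, Stfa3 at 6.16 TPM, Stfa2 at 1.24 TPM and BC117090 at 0.0513 TPM. BC100530 and Stfa3 were neighbours whose order turned with the group, since the mean of Stfa3 was above that of BC100530 in both Nrf2-KO groups. Cstb was at 20.2 TPM, between these 2 abundant genes and the rest.

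Gm5483 ranged from 40.6 to 103 TPM in GC-WT mice, with a median of 70.7 TPM. In FL-WT mice it ranged from 83.4 to 134 TPM, with a median of 110 TPM. In Nrf2-KO mice, its range was 48.0 to 99.6 on the ground (median 70.1) and 73.9 to 140 TPM in flight (median 85.1). Of the 6 FL-WT mice, 5 lay above every GC-WT mouse, and 2 of 6 FL-KO mice above every GC-KO mouse, so the groups overlapped in both genotypes. Stfa2l1 ranged from 40.5 to 70.03 TPM in GC-WT mice (median 62.6) and from 64.7 to 153 TPM in FL-WT mice (median 97.4). It ranged from 36.5 to 69.6 TPM in GC-KO mice (median 48.3) and from 53.0 to 111 TPM in FL-KO mice (median 74.0). The highest value, 153 TPM, was that of FL-WT mouse 10, and again flight and ground mice overlapped in both genotypes.

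Stfa1 lay between 3.98 and 8.23 TPM in GC-WT mice (median 5.69) and between 10.8 and 19.4 TPM in FL-WT mice (median 15.02). It lay between 6.03 and 10.1 TPM in GC-KO mice (median 7.75) and between 10.1 and 19.0 TPM in FL-KO mice (median 15.2). All FL-WT mice were above all GC-WT mice, whereas in Nrf2-KO mice 5 of 6 flight mice were above all ground mice. BC100530, the closest relative of Stfa1, lay between 1.66 and 4.09 TPM in GC-WT mice (median 3.14) and between 6.95 and 16.5 TPM in FL-WT mice (median 9.40). It lay between 2.73 and 6.77 TPM in GC-KO mice (median 3.68) and between 5.97 and 13.04 TPM in FL-KO mice (median 8.47). Its groups were apart in WT mice and touched in Nrf2-KO mice in the same way as those of Stfa1.

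Stfa3 lay between 1.44 and 5.08 TPM in GC-WT mice (median 3.12) and between 5.37 and 9.59 TPM in FL-WT mice (median 6.97). For Nrf2-KO mice it lay between 4.53 and 6.39 on the ground (median 4.88) and in flight between 7.66 and 11.5 TPM (median 9.05). Stfa3 was the only gene of the 7 tested whose flight and ground mice did not overlap in either genotype. How often all tested genes lie apart in this way is not known here. The FL-KO group of Stfa3 had the highest median of the 4. Stfa2 lay between 0 and 0.980 TPM in GC-WT mice (median 0.445) and between 1.51 and 3.74 TPM in FL-WT mice (median 1.93). It lay between 0.22 and 1.27 TPM in GC-KO mice (median 0.630) and between 1.16 and 1.84 TPM in FL-KO mice (median 1.57). Stfa2 was listed at 0 in 1 GC-WT mouse, and its groups were apart in WT mice only. BC117090 was listed at 0 in 16 of 24 mice, all 6 GC-KO mice included, and its highest value was 0.22 TPM in an FL-KO mouse.

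Cstb, the gene of stefin B, ranged from 14.7 to 19.7 on the ground (median 19.2) and from 18.2 to 26.9 TPM in flight (median 22.2) for WT mice. For Nrf2-KO mice the ranges were 16.6 to 22.3 TPM (median 17.8) and 17.1 to 23.8 TPM (median 22.02). Flight and ground mice overlapped in both genotypes. Its coefficient of variation within a group was 10.1% to 15.6%. That of Stfa1 was 18.2% to 34.4% and that of Gm5483 17.2% to 33.4%. That of Stfa3 was within the range of Cstb in GC-KO and FL-KO mice, at 14.3% and 14.5%, and 43.2% in GC-WT mice.

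**Figure D1:**
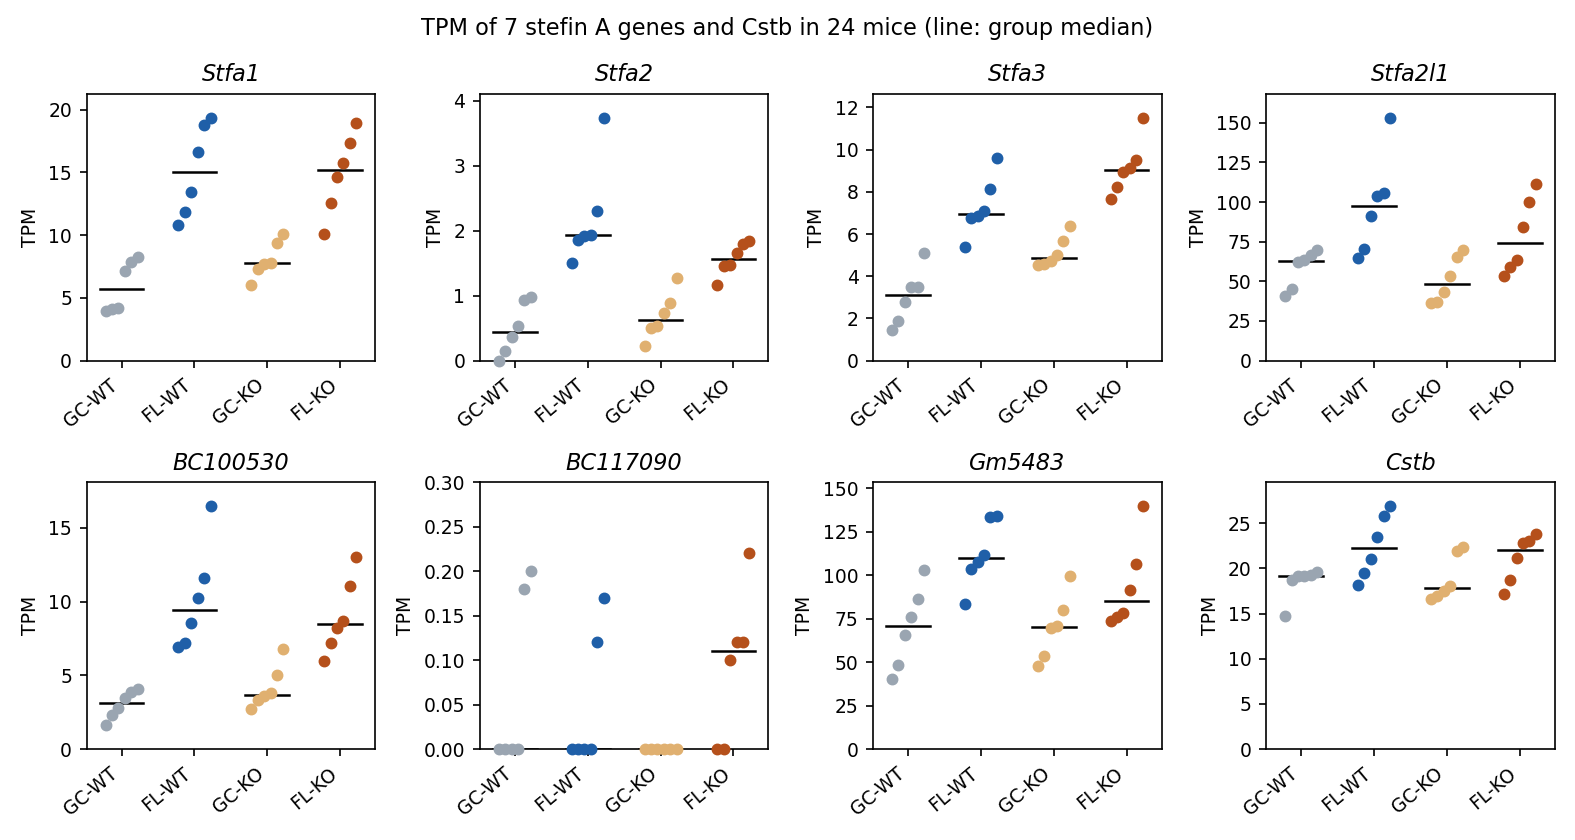
TPM (y axis, linear from 0, a scale of its own for each gene) of the 8 genes in the 4 groups (x axis). Each point is 1 mouse, ordered by value within its group, and the line is the group median. In Stfa1, Stfa2, Stfa3 and BC100530, all 6 FL-WT points lie above all 6 GC-WT points, while BC117090 stays at or under 0.22 TPM. The genes were picked for higher TPM after flight, so this is a description.

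The first comparison was that of flight and ground mice, the contrast on which the genes had been picked. In the WT flight effect, the mean of BC100530 was 10.2 ± 3.56 TPM (SD, n = 6) against 3.03 ± 0.943 TPM, a log2 fold change of 1.45 ± 0.20 (SE) on the log2(TPM + 1) scale. The fold change on this scale understates that of genes at a few TPM, and with a pseudocount of 0.1 that of Stfa2 was 2.31. With a pseudocount of 1 it was 1.24 ± 0.18 for Stfa1, 1.12 ± 0.17 for Stfa2 and 1.09 ± 0.16 for Stfa3. For the abundant genes it was smaller, at 0.73 ± 0.20 for Gm5483 and 0.72 ± 0.21 for Stfa2l1, and for Cstb it was 0.26 ± 0.12. Of the 7 tested genes, 4 passed the thresholds of an adjusted p under 0.1 and a 2-fold change upward, those that 0.0647% of all tested genes passed, 8 of 12373. Downward, 0 of 7 passed against 0.938% of all tested genes. Their selection on this contrast leaves nothing to be read from that count. Stfa3 at 1.09 was the gene just inside the fold threshold of 1 on the log2 scale and Gm5483 at 0.73 the one just outside it. The 4 genes above the threshold were those whose groups did not overlap. The share of all tested genes whose groups lie apart is not known here, so nothing is read from this either.

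In the KO flight effect, all 7 tested genes had a positive log2 fold change and none passed both thresholds of limma. Over all tested genes, 0% passed them upward and 2.13% downward. BC100530 was at 9.04 ± 2.597 TPM (SD, n = 6) in FL-KO and 4.20 ± 1.47 TPM in GC-KO mice, with a log2 fold change of 0.95 ± 0.20. The log2 fold change was 0.80 ± 0.18 for Stfa1, 0.72 ± 0.16 for Stfa3, 0.62 ± 0.17 for Stfa2, 0.61 ± 0.21 for Stfa2l1, 0.42 ± 0.20 for Gm5483 and 0.15 ± 0.11 for Cstb. The median over the 6 stefin A genes was 1.11 in WT and 0.67 in Nrf2-KO mice, against medians of all tested genes of -0.24 and -0.29. This count depended on scaling. Under median-of-ratios scaling or quantile normalization 4 of the 7 genes passed in the KO flight effect as well. With a pseudocount of 0.1 or without the 5 small RNAs, 2 passed. Of all tested genes, 0.0647% passed upward under median-of-ratios scaling, 0.0566% under quantile normalization and 0.0348% without the small RNAs. The share with a pseudocount of 0.1 is not known here.

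As deposited, the flight difference was smaller in Nrf2-KO than in WT mice for each of the 7 tested genes, but not under every scaling. The gap was below its SE for Stfa2l1 and Cstb and above its SE for the others. Without the 5 small RNAs, the WT and Nrf2-KO log2 fold changes were 0.701 and 0.80 for Stfa2l1 and 0.25 and 0.33 for Cstb, and under quantile normalization both were 0.91 for Stfa2l1. The difference of the 2 log2 fold changes, Nrf2-KO minus WT, was -0.50 ± 0.24 (SE) for Stfa2, -0.50 ± 0.29 for BC100530, -0.44 ± 0.25 for Stfa1, -0.37 ± 0.23 for Stfa3, -0.30 ± 0.29 for Gm5483 and -0.11 for both Stfa2l1 (± 0.30) and Cstb (± 0.16). Both terms contain the contrast on which the genes were picked, so no test is given.

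**Figure D2:**
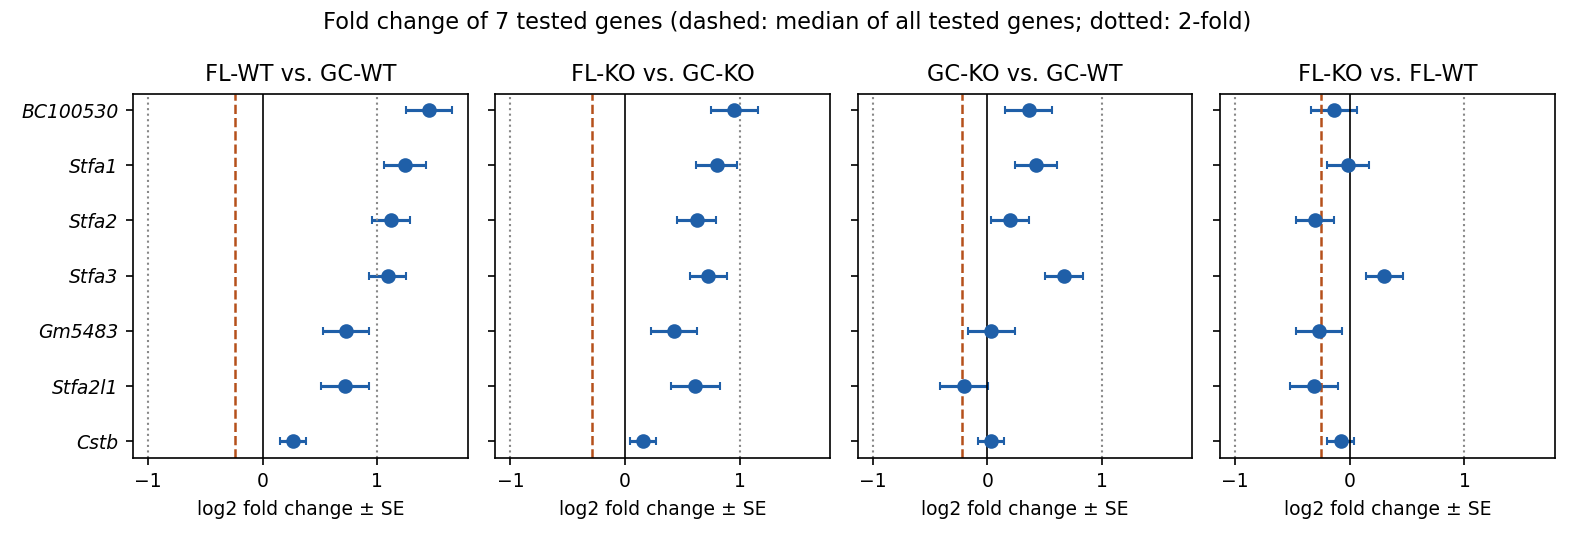
Log2 fold change on the log2(TPM + 1) scale (x axis) of the 7 tested genes (y axis) in 4 comparisons, with error bars of 1 SE from the fit of 24 libraries. The dashed line is the median of all 12373 tested genes and the dotted lines mark a 2-fold change. In the WT flight effect, 4 genes lie beyond 2-fold, from 1.09 to 1.45, and in the other 3 comparisons none does.

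The second comparison was that of the genotypes, which was not the contrast on which the genes had been picked. It shared its ground mice or its flight mice with that contrast. Its values and p-values are therefore not independent of the choice of the genes. In the ground genotype effect, Stfa3 was higher in the Nrf2-KO mice by limma's adjusted p, at 5.15 ± 0.737 TPM (SD, n = 6) against 3.03 ± 1.31 TPM, without reaching a 2-fold change. The log2 fold change was 0.67 ± 0.16 (SE, limma adjusted p = 0.00232 over all tested genes). The highest 2 GC-KO mice were above every GC-WT mouse. An exact permutation test of rank sums (in both directions) gave p = 0.0260, or 0.182 after Benjamini-Hochberg adjustment over 14 tests (7 genes in 2 comparisons), which is not significant. Stfa1 was at 8.06 ± 1.47 TPM in GC-KO and 5.93 ± 2.04 TPM in GC-WT mice, a log2 fold change of 0.42 ± 0.18 (limma adjusted p = 0.0637). That adjusted p was between 0.116 and 0.164 without GC-WT mouse 3, 5 or 6 or GC-KO mouse 11 or 12. Its exact permutation p was 0.180. The other 5 genes had limma adjusted p-values of 0.169 (BC100530) to 0.916 (Gm5483), with log2 fold changes of -0.21 ± 0.21 (Stfa2l1) to 0.36 ± 0.20 (BC100530).

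In limma, 2 of 7 genes thus had an unadjusted p under 0.05 in the ground genotype effect, both higher, against 3.29% of all tested genes higher and 43.4% lower, and 0 of 7 passed both thresholds, which 0.129% of all tested genes passed upward and 3.04% downward. After removal of the trends with GC content and length, the log2 fold change of Stfa3 was 0.41 (limma adjusted p = 0.0753) and that of Stfa1 was 0.17 (limma adjusted p = 0.380). Under median-of-ratios scaling the log2 fold change was 0.90 for Stfa3, 0.702 for Stfa1, 0.597 for BC100530, 0.35 for Cstb and 0.37 for Gm5483, with limma adjusted p-values of 0.000903, 0.000733, 0.00928, 0.000986 and 0.0824. Quantile normalization gave adjusted p-values of 0.00563 or lower for the first 4 of these and 0.298 for Gm5483. The number of stefins that differed between the genotypes on the ground therefore depended on the scaling. The share of all tested genes at an adjusted p under 0.1 is not known here for these scalings. This number is therefore not a result about the family.

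In the flight genotype effect, none of the 7 genes passed both thresholds in limma, and 0 of 7 had an unadjusted p under 0.05, against 1.91% of all tested genes higher and 47.3% lower. Upward 0.097% and downward 8.36% of all tested genes passed. Stfa2 was at 1.56 ± 0.254 TPM (SD, n = 6) in FL-KO and 2.21 ± 0.790 TPM in FL-WT mice, with a log2 fold change of -0.30 ± 0.17 (limma adjusted p = 0.155). FL-KO mice were higher in 3 of 36 pairs of mice, with an exact permutation p of 0.0152, or 0.182 after adjustment over the 14 tests. Without FL-WT mouse 10, the highest value, the log2 fold change of Stfa2 was -0.18. Stfa3 was at 9.16 ± 1.33 TPM in the Nrf2-KO mice against 7.30 ± 1.43 TPM, with a log2 fold change of 0.30 ± 0.16 (limma adjusted p = 0.143) and an exact permutation p of 0.0649. The log2 fold changes of the other 5 genes lay between -0.31 ± 0.21 (Stfa2l1) and -0.02 ± 0.18 (Stfa1), with limma adjusted p-values of 0.253 to 0.957, and under median-of-ratios scaling all 5 were positive. With that scaling, Stfa3, Stfa1 and Cstb were higher in FL-KO mice, by 0.67, 0.37 and 0.31 on the log2 scale (limma adjusted p = 0.00510, 0.0344 and 0.00151). After removal of the trends with GC content and length, Stfa2, Stfa2l1, Gm5483 and BC100530 were instead lower. Their log2 fold changes were -0.57, -0.61, -0.601 and -0.38 (limma adjusted p = 0.0117, 0.0128, 0.00793 and 0.0669). The shares of all tested genes at such adjusted p-values are not known here for either setting. Stfa3 stayed positive under every alternative, at 0.027 to 0.73, and Stfa2 was negative except for 0.054 under quantile normalization. For the other 5 genes the direction of the flight genotype effect was not settled. All exact permutation p-values can reach 0.00216 at the lowest.

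The stefin A transcripts were also taken as shares of their sum. Their summed level was 140 ± 29.6 (SD, n = 6) on the ground and 245 ± 56.8 TPM in flight for WT mice, and 139 ± 34.8 TPM and 208 ± 53.98 TPM for Nrf2-KO mice. Gm5483 and Stfa2l1 made up 90.9% ± 2.29 of it in GC-WT and 85.7% ± 1.14 in FL-WT mice. In Nrf2-KO mice they made up 86.9% ± 0.983 on the ground and 83.0% ± 1.76 in flight. BC100530 took 2.15% ± 0.506 in GC-WT and 4.11% ± 0.772 in FL-WT mice, and in Nrf2-KO mice 2.97% ± 0.342 on the ground and 4.34% ± 0.432 in flight. The share of Stfa3 was 2.27% ± 1.07 on the ground and 3.05% ± 0.663 in flight for WT mice, and 3.801% ± 0.572 and 4.60% ± 1.09 for Nrf2-KO mice. These shares are given without a test, and reads of near-identical copies enter them.

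**Figure D3:**
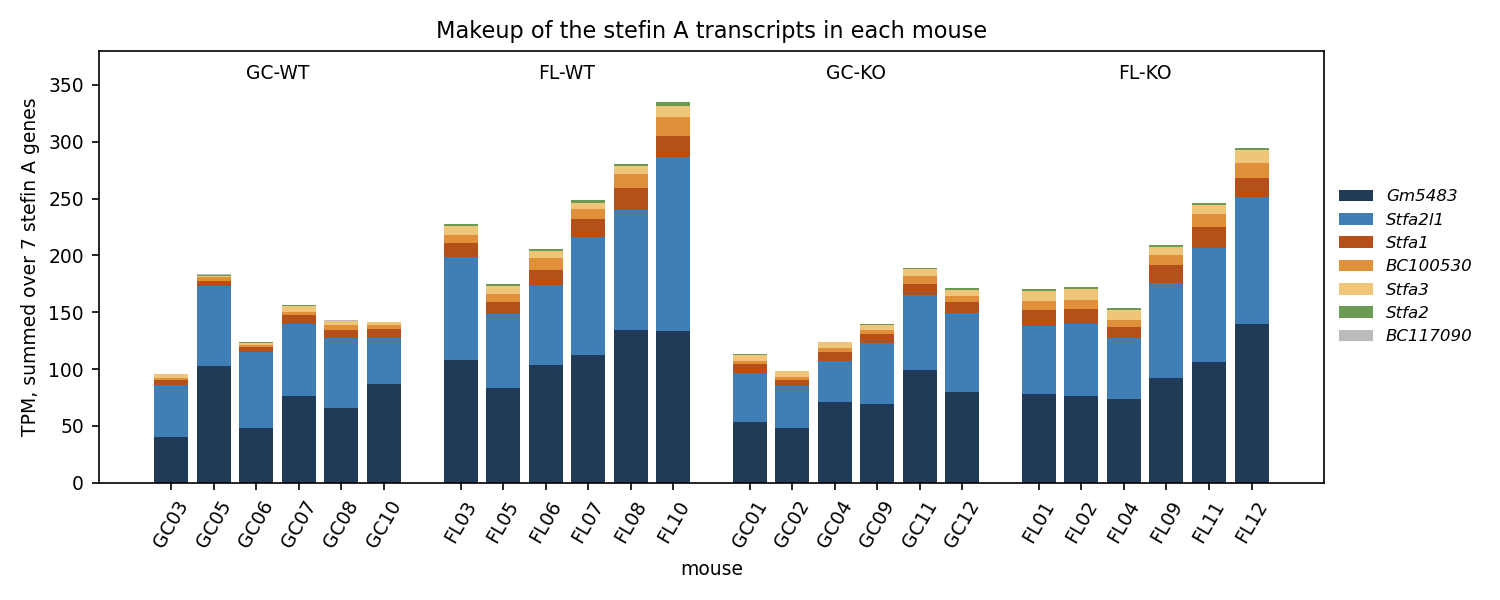
TPM of the 7 stefin A genes stacked for each mouse (y axis), with mice on the x axis by group and number. Gm5483 and Stfa2l1 form most of each bar, and the bars reach from 95.6 to 183 TPM in GC-WT mice and from 175 to 335 TPM in FL-WT mice.

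The cysteine cathepsins are the proteases that stefins inhibit. Of 10 listed cathepsins, all were tested and 0 passed both limma thresholds in any of the 4 comparisons. Their median log2 fold change was -0.10 in the WT flight effect and -0.18 in the KO flight effect, against medians of all tested genes of -0.24 and -0.29. At an adjusted p under 0.1 alone, 3 of 10 were lower in flight mice of both genotypes and none was higher, whereas 39% of all tested genes were lower in WT and 53.1% in Nrf2-KO mice, so the cathepsins did not exceed that share. The same numbers of cathepsins had an unadjusted p under 0.05, where 41.7% of all tested genes were lower and 1.1% higher in WT mice, and 52.2% lower and 0.291% higher in Nrf2-KO mice. The 3 were Ctsb, Ctsf and Ctsl in each genotype. Ctsb, an abundant lysosomal protease, was at 42.4 ± 11.9 TPM in FL-WT and 61.0 ± 11.2 TPM in the ground group, a log2 fold change of -0.54 ± 0.16 (limma adjusted p = 0.0173). In Nrf2-KO mice it was at 27.6 ± 4.68 and 45.8 ± 9.90 TPM, a log2 fold change of -0.70 ± 0.16 (limma adjusted p = 0.00193).

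On the log2 scale, Ctsf fell by 0.76 ± 0.14 in the WT and 0.96 ± 0.14 in the KO flight effect, at 1.01 to 3.28 TPM. Its groups did not overlap in either genotype, and those of Ctsb did not overlap in the KO flight effect. The share of all tested genes whose groups lie apart is not known here, so nothing is read from this. Ctsl was lower by less, with log2 fold changes of -0.34 ± 0.13 and -0.32 ± 0.13. Ctss, the most abundant of the 10 in FL-WT mice, was at 62.7 ± 17.2 TPM in FL-WT and 60.04 ± 6.51 TPM in GC-WT mice (limma adjusted p = 0.908). Ctsh, Ctsz, Ctsc, Ctsk, Ctso and Ctsw had log2 fold changes of -0.37 to 0.16 in the WT flight effect and did not pass an adjusted p under 0.1.

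Between the genotypes, 6 cathepsins had an adjusted p under 0.1 in the ground genotype effect, 5 lower and 1 higher, and 7 in the flight genotype effect, all lower. Of all tested genes, 42.9% and 47.2% were lower at this threshold and 3.13% and 1.91% higher, so the counts of lower cathepsins are not a result about this family. In both comparisons Ctsb, Ctsc, Ctsl, Ctsw and Ctsz were lower. Ctsw, expressed in T and NK cells, was at 1.18 ± 0.254 TPM in FL-KO and 2.40 ± 0.820 TPM in FL-WT mice (log2 fold change -0.62 ± 0.15, limma adjusted p = 0.00106). Ctsc, which activates the serine proteases of granules, had log2 fold changes of -0.47 ± 0.17 in both comparisons. Ctsh and Ctss were lower in the flight genotype effect, by log2 fold changes of -0.34 ± 0.12 and -0.48 ± 0.15. Ctsf was the 1 that was higher, in the ground genotype effect, by 0.31 ± 0.14. The summed level of the 10 cathepsins was 244 ± 28.9 on the ground and 228 ± 55.9 TPM in flight for WT mice, and 196 ± 34.8 TPM and 160 ± 17.5 TPM for Nrf2-KO mice.

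**Figure D4:**
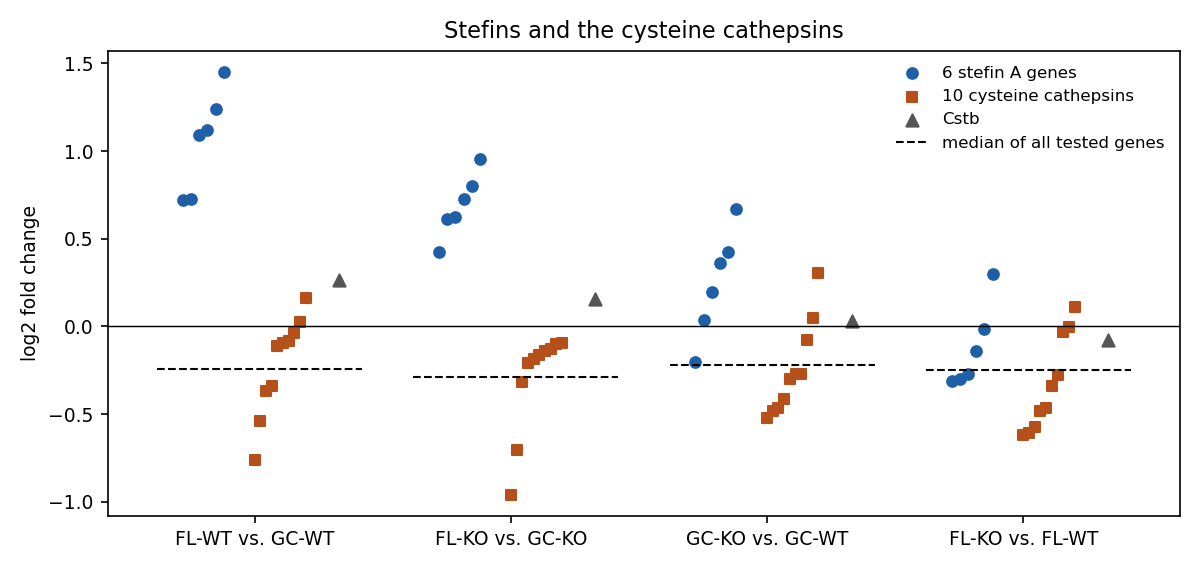
Log2 fold changes on the log2(TPM + 1) scale (y axis) of 6 stefin A genes (circles), 10 cysteine cathepsins (squares) and Cstb (triangle) in the 4 comparisons (x axis), with the median of all tested genes as a dashed line. In both flight comparisons the lowest stefin A value, 0.72 in WT and 0.42 in Nrf2-KO mice, lies above the highest cathepsin value, 0.16 and -0.09. The stefin A genes were picked on flight and the cathepsins were not, so nothing is read from this separation.

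Other protease inhibitors were read from lists of their own. Of 9 further cystatins and legumain, 3 were tested and none passed both limma thresholds in any comparison. Cst3, the secreted cystatin C, was at 244 ± 45.5 TPM in FL-WT and 193 ± 35.7 TPM in GC-WT mice (log2 fold change 0.33 ± 0.14, limma adjusted p = 0.0624). In the KO flight effect its log2 fold change was -0.13 ± 0.14 (limma adjusted p = 0.435). Cst7, an inhibitor of leukocyte cathepsins, was at 13.8 ± 4.45 TPM in FL-WT and 13.7 ± 2.18 TPM in GC-WT mice. Lgmn, the asparaginyl protease legumain, was lower in Nrf2-KO mice, with log2 fold changes of -0.66 ± 0.15 on the ground and -0.67 ± 0.15 in flight. At an adjusted p under 0.1, 42.9% and 47.2% of all tested genes were lower in these genotype comparisons. Of 12 other leukocyte protease inhibitors, 9 were tested and none passed both thresholds. Wfdc21, a whey acidic protein domain inhibitor of neutrophils, was the 1 with an adjusted p under 0.1 in the WT flight effect, at 796 ± 53.7 TPM against 550 ± 142 TPM (log2 fold change 0.57 ± 0.13, limma adjusted p = 0.00280). For both lists, unadjusted p under 0.05 and adjusted p under 0.1 gave equal numbers, 2 and 1 in the WT and 1 and 1 in the KO flight effect. In WT mice Cst3 and Wfdc21 were higher and Lgmn lower (log2 fold change -0.35 ± 0.15, limma adjusted p = 0.0802). In Nrf2-KO mice Lgmn (-0.37 ± 0.15, limma adjusted p = 0.0550) and Wfdc17 (-0.43 ± 0.17, limma adjusted p = 0.0411) were lower. Of all tested genes, 39% were lower and 0.994% higher at this adjusted p in WT mice, and 53.1% and 0.299% in Nrf2-KO mice.

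Genes next to the stefin A cluster gave few values. Between its first and last gene 22 other genes were annotated, of which 19 were at 0 in every mouse and 2 were tested. 2010005H15Rik, whose coding sequence was 96.9% identical to that of Gm5483, was at 0.657 ± 0.348 TPM in FL-WT and 0.335 ± 0.349 TPM in GC-WT mice, with a log2 fold change of 0.32 ± 0.15 (limma adjusted p = 0.0996). In Nrf2-KO mice it was at 0.607 ± 0.154 and 0.253 ± 0.133 TPM, with a log2 fold change of 0.36 ± 0.15 (limma adjusted p = 0.0548). Gm5416, another stefin-like gene, was at 0.373 ± 0.343 TPM in GC-KO and 0.942 ± 0.480 TPM in GC-WT mice (log2 fold change -0.51 ± 0.18, limma adjusted p = 0.0320). In that comparison 42.9% of all tested genes were lower at an adjusted p under 0.1. None of the flanking genes Ccdc58, Fam162a, Wdr5b, Cd86, Slc15a2 and Iqcb1 passed both thresholds in any comparison. Gm15845 overlaps the start of BC100530 on the other strand and was listed at 0.

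Some marker genes of neutrophils also rose in the WT flight effect. Of 10 markers of mature neutrophils, 5 were higher there at an adjusted p under 0.1 and below 2-fold, namely Retnlg, Ccl6, Clec4d, S100a8 and S100a9, with log2 fold changes of 0.52 to 0.62, against 0.994% of all tested genes. Of the others, Csf3r, Mmp9 and Cxcr2 had log2 fold changes of -0.41, -0.24 and -0.04 and did not pass. The median of the 10 was 0.38. In the KO flight effect, Retnlg and Clec4d were higher and Csf3r and Mmp9 lower at this threshold, which 0.299% of all tested genes passed upward and 53.1% downward, and the median was 0.08. The summed level of the 10 markers ranged from 24417 to 48832 on the ground and from 39177 to 54463 TPM in flight for WT mice, and from 37292 to 57400 TPM and 45358 to 61929 TPM for Nrf2-KO mice. Most of it was S100a8 and S100a9. Per 1000 TPM of these markers, the stefin A genes had 4.25 ± 0.870 on the ground and 4.99 ± 0.722 TPM in flight for WT mice, and 3.08 ± 0.424 TPM and 4.04 ± 0.567 TPM for Nrf2-KO mice. The part of the neutrophil markers in the stefin A result was not tested.

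Among the other marker lists, the median log2 fold changes in the WT flight effect and the KO flight effect were 0.18 and -0.13 for 9 secondary granule genes, 0.06 and -0.14 for 6 promyelocyte genes, -0.19 and -0.37 for 8 monocyte and macrophage genes, and 0.13 and -0.31 for 5 genes of eosinophils, basophils and mast cells. They were -0.82 and -0.70 for 8 B progenitor genes, -0.04 and -0.10 for 6 T and NK genes, -0.50 and -0.67 for 6 erythroid genes, and -0.70 and -0.98 for 5 megakaryocyte genes. The 8 B progenitor genes were all lower at an adjusted p under 0.1 in both genotypes, as were 39% of all tested genes in WT and 53.1% in Nrf2-KO mice. The 6 epidermal genes, markers of the other tissue known for stefin A, summed to at most 0.710 TPM in any mouse. Marker genes past both thresholds were all lower: Rag1 and Slc4a1 in the WT flight effect, and Mmp9, Mpo, Slc4a1, Klf1, Ppbp and Gp1bb in the KO flight effect. In the ground genotype effect they were Csf3r, Mmp9, Ltf, Itgb2l, Mpo, Csf1r, Prss34 and Rag1. In the flight genotype effect they were Csf3r, Mmp9, Ltf, Lcn2, Cd177, Itgb2l, Mpo, Elane, Csf1r, Cx3cr1, Epx, Prss34, Cd79a, Cd3e, Slc4a1 and Klf1.

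Variation within the groups was also compared between genes. Values were taken as deviations of log2(TPM + 1) from the group mean over 24 mice. Among the 15 pairs of tested stefin A genes Pearson's r ranged from 0.11 to 0.82, with a median of 0.45. The highest were 0.82 for BC100530 and Gm5483 and 0.75 for Stfa1 and BC100530, and the lowest was 0.11 for Stfa3 and Gm5483. Stfa3 had an r of at most 0.45 with any other member. For Cstb with each of the 6 stefin A genes, r ranged from -0.01 to 0.68, with a median of 0.57. Such covariation was thus not particular to the stefin A cluster. Over 5019 candidate genes, the median r with the mean of the stefin A genes was 0.45, a quantity unlike the r of single pairs because an average varies less, and values of 1 library share its depth and composition. The genes most like the stefin A mean were Nmi (r = 0.77), Nqo2 (r = 0.76), Ss18l2 (r = 0.76), Hnmt and Clec12a, a receptor of myeloid cells (both r = 0.76). Ap3s1, Ugp2, Chil3, Mrpl42 and Mrpl33 followed with r of 0.74 to 0.75. Without GC-KO mouse 11 and FL-WT mouse 10, the 2 mice with the highest stefin A values for their groups, the r of these 10 genes was 0.64 to 0.76. The r with the mean of the marker lists was 0.66 for promyelocyte, 0.62 for mature neutrophil, 0.58 for secondary granule, 0.58 for monocyte and macrophage, 0.28 for B progenitor and 0.27 for erythroid genes.

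The stefin A transcripts were short and of low GC content, at 412 to 619 nt and 39.1% to 43.3% against medians of 2729 nt and 49.5% over the tested genes. For 637 protein-coding genes of 400 to 1000 nt, the median log2 fold change was 0.00 in the WT flight effect and -0.12 in the KO flight effect. For the 33 of these with a GC content in the range of the stefin A genes, it was 0.06 and -0.01. After removal of each library's trend with GC content and length, the stefin A genes had log2 fold changes of 0.76 to 1.502 in the WT flight effect and 0.44 to 0.99 in the KO flight effect.

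**Figure D5:**
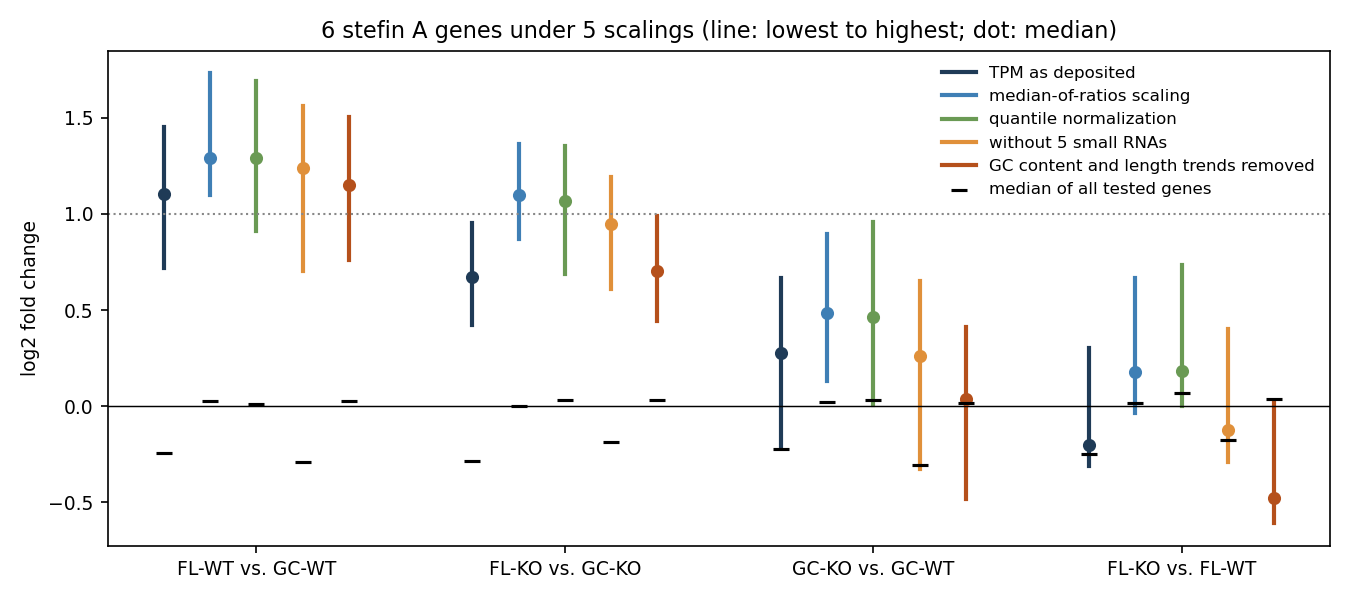
Log2 fold change (y axis) of the 6 tested stefin A genes in 4 comparisons (x axis) under 5 ways of scaling, each with a line from the lowest to the highest gene, a dot at their median and a dash at the median of all tested genes. In the WT flight effect the 5 medians lie between 1.11 and 1.29 and in the KO flight effect between 0.67 and 1.097, whereas in the flight genotype effect the median is below 0 as deposited and above 0 under median-of-ratios scaling and quantile normalization.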

How the data were processed

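RNA of cryopreserved bone marrow cells was sequenced from 24 mice in 4 groups of 6, taken from the sample labels. The authors prepared stranded libraries (MGIEasy RNA Directional Library Prep Set, DNBSEQ-G400), used STAR 2.6.1 for mapping (mm10) and RSEM 1.3.1 for TPM, a transcript's abundance scaled by length and library total, and deposited these TPM values per gene. TPM keeps no depth, so no counting error is given, and RSEM shares reads out between near-identical copies by estimation. From these values, log2(TPM + 1) of the 12373 genes that exceeded 1 TPM in any library was fitted in limma 3.58.1 (R 4.3.3) with 1 mean per group over all libraries. A gene was called where its p, adjusted by Benjamini-Hochberg, was under 0.1 and its change at least 2-fold. Genotype differences were also tested with exact two-sided permutation tests. p-values measure the spread between mice. Annotation came from GENCODE M21 (GRCm38) and start regions from RefSeq.

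The genes, lists and thresholds were chosen with earlier results of these data known. Named were all 8 genes, all listed cathepsins and, from the other lists, the genes called in a comparison, and further members with an adjusted p under 0.1 were chosen after their values were seen. Candidates for likeness had a mean of at least 5 TPM. The limma fit and its calls were tested on simulated data with independent noise, without shifts in composition or near-identical copies. Each mouse was left out in turn, and the fit was repeated with its number as a block, with the compared groups alone and with limma's trend on mean expression. Scaling by median of ratios, quantile normalization and removal of 5 abundant small RNAs were tried, as were a pseudocount of 0.1, the filter dropped or raised to 6 libraries, a stricter adjusted p of 0.05, and calls without a minimum fold. Removal of GC content and length trends was added after seeing the data. Protein sequences were not used here.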

Additional observations from a re-analysis of the deposited data

Results flagged for a closer look

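Of 28 groups of 6 mice (7 genes in 4 groups), 2 held a mouse whose distance from the next was above Dixon's critical value for 6 values, and chance gives this in about 1 of 20 groups. For Stfa2, FL-WT mouse 10 was the highest at 3.74 TPM, above a group median of 1.93 TPM. This mouse also had the highest Stfa2l1 value of all mice, 153 TPM. Without it, the log2 fold change of Stfa2 in the WT flight effect was 1.002, and in the flight genotype effect it was -0.18. For Cstb, GC-WT mouse 3 was the lowest at 14.71 TPM, below a group median of 19.2 TPM. Without it, the log2 fold change of Cstb in the WT flight effect was 0.20.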

How the results depend on the processing

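In the WT flight effect, 4 stefins passed both thresholds, against 6 under median-of-ratios scaling, 7 with no minimum fold change, 3 to 4 with a mouse left out (3 without GC-WT mouse 5) and 4 under the other alternatives. In the KO flight effect, where none passed, 2 did with a pseudocount of 0.1 and without the 5 small RNAs, 4 under median-of-ratios scaling and quantile normalization, 6 with no minimum fold change, and 0 to 1 with a mouse left out (1 without FL-KO mouse 1 or 4 or GC-KO mouse 11 or 12). With no minimum fold change, 2 stefins passed in the ground genotype effect, against 3.13% of all tested genes higher and 42.9% lower. Upward in the WT flight effect, 0.178% of all genes passed under median-of-ratios scaling and 0.994% with no minimum fold. In the KO flight effect these shares were 0.0647% and 0.299%. They were 0.0566% there under quantile normalization and 0.0348% without the small RNAs. Shares with a pseudocount of 0.1 or a mouse left out are not known here. No cathepsin passed at first, but 1 did in both flight effects with a pseudocount of 0.1, 1 in the KO flight effect without the small RNAs, 0 to 1 there with a mouse left out (1 without FL-KO mouse 1 or GC-KO mouse 12), and 3, 3, 6 and 7 with no minimum fold change, in the order of the comparisons. With no minimum fold change, 39%, 53.1%, 42.9% and 47.2% of all tested genes were lower in these comparisons. Higher were 0.994%, 0.299%, 3.13% and 1.91%. The cause of the changes in these counts was not tested.

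Fold changes near 0 between the genotypes changed sign, as log2 values. In the flight genotype effect, median-of-ratios scaling gave 0.37 for Stfa1, 0.089 for Stfa2l1, 0.23 for BC100530, 0.13 for Gm5483 and 0.31 for Cstb, and quantile normalization 0.41, 0.0036, 0.31, 0.0023 and 0.32, with 0.054 for Stfa2. Without the small RNAs, Stfa1 was at 0.067 and Cstb at 0.0024. In the ground genotype effect, Stfa2l1 was at 0.13 and 0.0032 under these scalings, Gm5483 and Cstb at -0.083 and -0.085 without the small RNAs, and Stfa2 and Gm5483 at -0.060 and -0.28 after removal of GC content and length trends. With a mouse left out, the ranges were -0.11 to 0.16 for Gm5483 and -0.031 to 0.063 for Cstb in the ground genotype effect, and -0.10 to 0.081 for Stfa1 and -0.24 to 0.0013 for BC100530 in the flight genotype effect. The limma adjusted p of Stfa1 in the ground genotype effect ranged from 0.0299 to 0.164 with a mouse left out. Depth is unknown, so the precision of genes near 0 TPM, such as Stfa2 and BC117090, cannot be given.

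With the mouse number as a block, 4 stefins passed in the WT and 0 in the KO flight effect. The block changed none of the counts of stefins and cathepsins past the thresholds in these 2 comparisons. Of 12 same-numbered pairs of mice, 6 correlated above 0.1, with r from -0.05 to 0.40. These values alone cannot show whether the numbers pair the mice.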
